A study of Mus musculus with 9 samples.

Results

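Translation initiation factors are the proteins that bring the initiator tRNA, the mRNA and the small ribosomal subunit together at a start codon. Their genes were described here at the mRNA level in mouse embryonic stem cells. The members were all genes of the deposited count table whose symbol begins with Eif and a digit from 1 to 6, without the eIF2 kinases (Eif2ak genes) and without pseudogenes, which gave 62 of 16636 genes. A filter on low counts left 56 of the 62 for testing, and the other 6 (Eif4a3l1, Eif1ad6, Eif1ad7, Eif1ad10, Eif1ad14 and Eif1ad18) were counted too rarely.

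All cells were of the E14 line, an established wildtype mouse embryonic stem cell line, grown on fibronectin without serum in 2i medium (the MEK inhibitor PD0325901 and the GSK3 inhibitor CHIR99021) with LIF, which holds the cells in a naive pluripotent state. The 3 groups were untreated cells, cells given a luciferase siRNA (siLuc, the transfection control) and cells given an siRNA to Stag3 (siStag3). Stag3 encodes a cohesin subunit best known from meiosis. The siRNA was given in 2 transfections of 50 pmol each, and RNA was collected at 48 h. Each group had 3 libraries from biological replicates. Untreated cells received no transfection reagent as far as the labels say, so siLuc against untreated compares transfection and control siRNA together with no treatment, and siStag3 against siLuc compares the 2 siRNAs.

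In textbook terms, initiation runs through a small number of complexes. eIF2, a trimer that binds GTP, carries the initiator tRNA to the small subunit, and eIF2B reloads eIF2 with GTP; phosphorylation of the eIF2 alpha subunit blocks eIF2B and starts the integrated stress response. eIF3 is the large scaffold on the small subunit, eIF4F (cap-binding eIF4E, scaffold eIF4G and helicase eIF4A) recruits capped mRNA, and the 4E-BP proteins hold eIF4E away from eIF4G when mTORC1 is inactive. eIF1 and eIF1A control scanning, eIF5 and eIF5B act at start codon recognition and subunit joining, and eIF5A is a hypusinated factor that acts mainly in elongation. Much of this control acts on proteins, which were not measured.

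Total counts ran from 29332436 to 44527534 per library, and the 62 genes together took between 1.82% and 1.89% of the counts in all 9. Stag3 itself was at 24.1, 24.3 and 28.6 CPM (counts scaled to a common library size) in untreated cells, 22.5, 23.3 and 26.7 with siLuc, and 13.5, 15.2 and 15.6 with siStag3. Every siStag3 library lay below every siLuc library, with a difference of -0.71 on the log2 scale (standard error, SE, 0.0722; adjusted p = 0.00205, edgeR). In bulk RNA, fewer cells expressing a gene and less of its RNA per cell cannot be told apart. The column names place 6 libraries in Set 1 and 3 in Set 3, 1 of each group, and do not say what a set is. The Set 3 siLuc library carries experiment number 1 and the other Set 3 libraries experiment number 5, so inside Set 3 the siLuc library also differs from its partners in experiment. All edgeR results below come from a fit with the set as a term unless another fit is named; without the set the adjusted p of Stag3 was 0.605 at the same difference, and leaving out the siStag3 library of Set 1 experiment 1 gave 0.0582. All 8 embryonic stem cell markers were expressed, at mean levels of 187 to 1392 CPM. Summed levels stayed at or under 5.44 CPM for fibroblast, 2.67 CPM for primitive endoderm and 8.44 CPM for trophectoderm markers in every library, while the neural list summed to 147 to 164 CPM in untreated, 155 to 161 in siLuc and 165 to 190 in siStag3 libraries; its part in the results was not tested.

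Many mRNAs of the translation machinery begin with a C followed by a run of pyrimidines, the terminal motif through which mTORC1 controls their translation. The first bases of the genes are therefore shown for the 2 members that carry such a start, and for Eif1ax, the only member that passed a comparison between groups in the fit with the set. RefSeq promoter sequences (GRCm38.p6) were matched for 40 of the 62 members. Each line gives 10 bases before the annotated start and 20 from it, 5′ to 3′ on the strand of the gene, with the run of C and T from the start in capitals.
Eif2s3x (chrX:94212632-94212661, minus strand): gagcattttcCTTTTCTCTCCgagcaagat
Eif3f (chr7:108934405-108934434, plus strand): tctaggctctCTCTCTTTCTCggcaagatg
Eif1ax (chrX:159372168-159372197, plus strand): ggaggagggcggggagaagccccgcccgct
A C at the start followed by at least 4 further C or T was found at 2 of the 40 members (5%) and at 377 of 12934 genes of the table with a promoter entry (2.91%). The search read the annotated start only, on the gene's own strand. Of the 3 genes shown, Eif1ax has no pyrimidine at its annotated start.

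Levels were compared between genes per length, as CPM per kilobase of the longest well-supported coding transcript (GENCODE M21), averaged over the 9 libraries. The helicase gene Eif4a1 stood highest at 1188 CPM per kb, followed by Eif5a at 674, Eif2s2 (eIF2 beta) at 581 and Eif1 at 317. Their library ranges did not meet, with 1095 to 1269, 636 to 748, 504 to 677 and 285 to 336 CPM per kb, except that the upper end of Eif2s2 lay above the lower end of Eif5a. For 9 of the 62 members, among them Eif2s3x, Eif4e, Eif4g2 and Eif4g3, the median transcript differed from the longest by more than 1.5-fold in length, and these were left out of the order of levels.

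**Figure D1:**
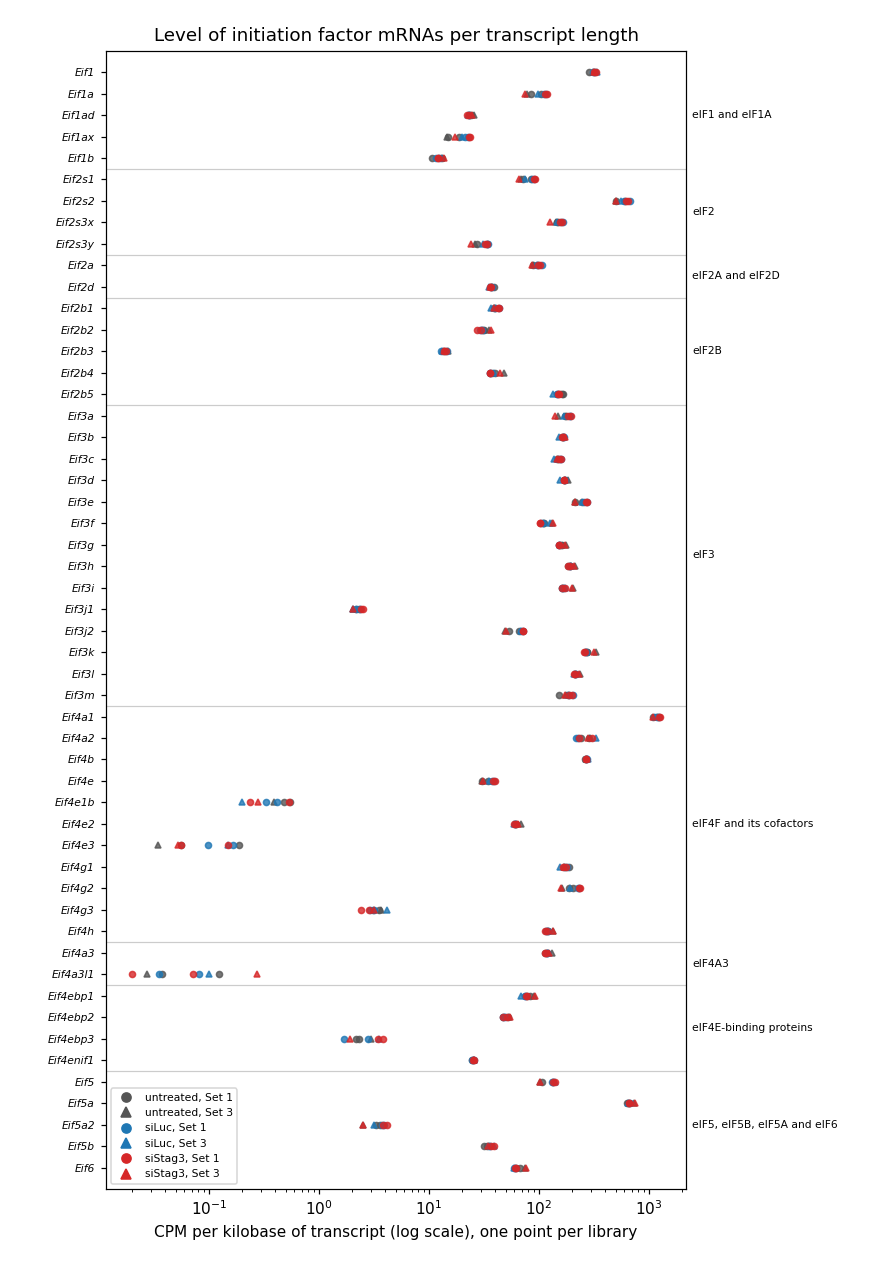
Level per transcript length of the 52 initiation factor genes outside the numbered Eif1ad genes, grouped by complex, in CPM per kilobase on a log axis with 1 point per library (colour: group, circle: Set 1, triangle: Set 3). Eif4a1 is highest at 1188 CPM per kb on average, the 12 eIF3 subunits other than the j genes lie between 116 and 282, and Eif4e3 and Eif4a3l1 lie lowest.

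Over all 14 eIF3 genes the level ran from 2.25 to 282 CPM per kb, and without the j genes the subunits lay closer together. The 12 subunit genes other than the j genes lay between 116 CPM per kb (Eif3f) and 282 (Eif3k), a 2.44-fold range. Eif3j encodes the loosely bound j subunit and is present in mouse as Eif3j1 and Eif3j2, which stood at 2.25 and 63.8 CPM per kb. Of the sequence of Eif3j2, 94.0% of 31-base words also occur in Eif3j1, so the deposited counts may divide reads between them and the single values are uncertain.

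The trimeric eIF2 was less even than eIF3 without the j genes. Eif2s2 reached 581 CPM per kb and Eif2s1, which encodes the alpha subunit that stress kinases phosphorylate, 81.2. The gamma subunit has an X-linked and a Y-linked gene, and Eif2s3y stood at 30.9 CPM per kb. In CPM, Eif2s3y reached 9.28% to 11.4% of the level of Eif2s3x, of whose 31-base words 34.9% also occur in the retrogene Gm2223. Among the eIF2B genes, Eif2b5, which encodes the catalytic epsilon subunit, stood at 153 CPM per kb, above the ranges of the other subunits. Eif2b1 (alpha) at 40.6, Eif2b4 (delta) at 39.4 and Eif2b2 (beta) at 31.5 had overlapping ranges, and Eif2b3 (gamma) was lowest at 13.9. Eif2b4 overlaps Snx17 on the opposite strand, and the strand setting of the counting is not given in the sources used here.

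In eIF4F, the scaffold gene Eif4g1 and the helicase cofactor gene Eif4b stood at 173 and 271 CPM per kb, and Eif4h, a cofactor related to Eif4b, at 122. Eif4a2, a close relative of Eif4a1, was at 270 CPM per kb. The cap-binding relatives Eif4e1b and Eif4e3 were barely expressed, at 0.721 and 0.266 CPM. Among the repressors of eIF4E, Eif4ebp1 (80.1 CPM per kb) and Eif4ebp2 (50.3) were both expressed, while Eif4ebp3 was at 2.75, with 66.4% of its 31-base words shared with the overlapping readthrough gene Maskbp3. Eif6, whose product keeps the large ribosomal subunit from joining early, stood at 64.8 CPM per kb and Eif5a2, the second eIF5A gene, at 3.42. The 10 numbered Eif1ad genes had at most 67 counts in any library and share 31-base words mostly with one another, so they are not read singly.

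Variation among the 9 libraries was small. The coefficient of variation of CPM had a median of 7.81% over the 48 members with a mean of at least 10 CPM, beside 9.54% over all 8658 such genes. Eif4enif1, whose product carries eIF4E into the nucleus, was the steadiest at 2%, with 90.5 to 95.6 CPM in all libraries, followed by Eif4b at 2.04%. Eif4a2 varied more, with 662, 781 and 789 CPM in untreated, 619, 591 and 903 in siLuc and 636, 832 and 757 in siStag3 libraries. Its spread was within the groups and not between them; the Set 3 siLuc library was highest and the Set 1 siLuc libraries were among the 3 lowest. Eif4a2 overlaps Rfc4 on the opposite strand.

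The first comparison asks what the Stag3 siRNA changed beyond the control siRNA. None of the 56 tested members passed an adjusted p of 0.05 between siStag3 and siLuc (edgeR quasi-likelihood test, Benjamini-Hochberg over 14246 genes), where 0.0281% of all genes tested did (4 genes). At an unadjusted p under 0.05 there were 2 members by edgeR, 3.57% of the 56, beside 7.88% of all genes, and DESeq2 also called 0 members, where it called 0.157% of all genes. The median log2 difference was 0.01 over the 56 members and -0.0048 over all genes. For 48 of the 56 the 95% interval lay inside ±0.5 on the log2 scale, with a median half-width of 0.143, so smaller differences were not resolved.

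The 3 members with the smallest p in this comparison were Eif4g3, Eif4ebp1 and Eif6. Eif4g3, which encodes a less abundant relative of the eIF4G1 scaffold, was at 18.1, 19.4 and 25.5 CPM with siLuc and 17.7, 14.8 and 19.4 with siStag3. The groups overlapped, and the difference was -0.27 (95% interval -0.47 to -0.08; adjusted p = 0.461, edgeR). It was negative in both sets, -0.21 in Set 1 and -0.39 in Set 3. Eif4ebp1, a direct mTORC1 target that holds eIF4E, was at 150, 151 and 139 CPM with siLuc and 154, 156 and 186 with siStag3. The siStag3 libraries were all above the siLuc libraries, with a difference of 0.17 (0.01 to 0.32; adjusted p = 0.615, edgeR) that was 0.04 in Set 1 and 0.42 in Set 3. For Eif6 the difference was 0.13 (-0.02 to 0.28; adjusted p = 0.661, edgeR), with 0.02 in Set 1 and 0.35 in Set 3. CPM did not overlap between these groups for 2 members, Eif4ebp1 and Eif2b5, both higher with siStag3, where 6.59% of all genes did not overlap.

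**Figure D2:**
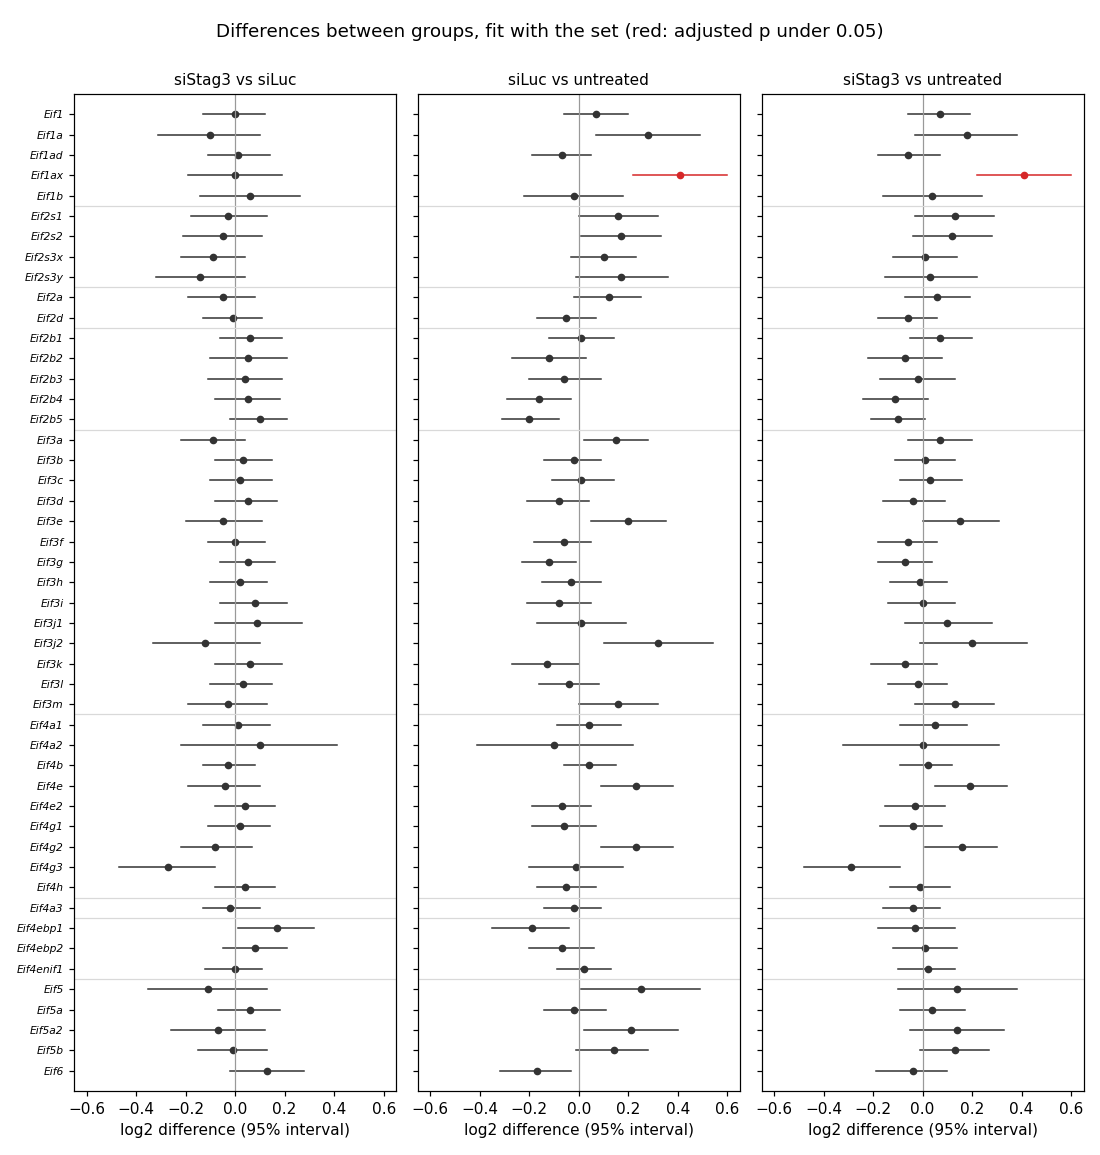
Log2 differences (points) with 95% intervals (lines) from the fit with the set for the 48 members with a mean of at least 10 CPM, in 3 comparisons. No member passed the threshold for siStag3 against siLuc, and Eif1ax (red) passed it in both comparisons with untreated cells, at 0.41 in each.

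Transfection with the control siRNA was compared with no treatment next. Of the 56 members, 1 passed between siLuc and untreated cells, where 4.2% of all genes tested did. It was Eif1ax, the X-linked gene for eIF1A, which helps the small subunit scan. Eif1ax was at 76.7, 97.7 and 75.7 CPM in untreated cells and 118, 110 and 104 CPM with siLuc. Every siLuc library lay above every untreated library. The difference was 0.41 (SE 0.0869; 95% interval 0.22 to 0.60; adjusted p = 0.0237, edgeR), 0.40 within Set 1 and 0.46 within Set 3. Without the set in the fit the adjusted p was 0.58, and leaving out 1 library left Eif1ax uncalled in 4 of 9 fits, those without the Set 1 experiment 1 or the Set 3 library of either group (adjusted p up to 0.141).

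Eif1a, the autosomal gene of the same factor, was at 246, 300 and 225 CPM in untreated cells and 335, 317 and 281 with siLuc. Its groups overlapped, and its difference of 0.28 missed the threshold (0.07 to 0.49; adjusted p = 0.0974, edgeR). Eif1ax reached 31.2% to 42.3% of the level of Eif1a in CPM, highest in the Set 3 siStag3 library.

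An unadjusted p under 0.05 was found for 17 members (30.4%), close to the 27.8% of all genes. CPM of siLuc and untreated libraries did not overlap for 6 members that were higher and 7 that were lower with siLuc, together 13 of 56, where 19.9% of all genes tested did not overlap. By DESeq2 with the same terms 6 members passed: Eif1ax, Eif3j2, Eif4g2, Eif4e and Eif1a higher and Eif2b5 lower; these names were picked after their values were seen. DESeq2 called 11.6% of all genes with an adjusted p. In edgeR these 5 others had adjusted p values of 0.0791, 0.061, 0.0633, 0.0974 and 0.051 in that order of genes, and none passed. With the GC correction described below, the differences of Eif3j2, Eif4g2, Eif4e and Eif1a were 0.13, 0.10, 0.04 and 0.09. Their adjusted p values then ran from 0.0805 (Eif3j2) to 0.624 (Eif4e, both edgeR). Without the Set 3 siStag3 library 10 members passed edgeR in this comparison, and without the untreated library of Set 1 experiment 3 there were 2. The shares of all genes passing in these 2 fits are not given here, so the counts are not read as particular to initiation factors.

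siStag3 against untreated cells shares the untreated libraries with the comparison before. Again 1 of 56 members passed, Eif1ax, where 2.53% of all genes tested did. Its siStag3 libraries were at 121, 123 and 90.2 CPM, and the Set 3 library of siStag3 lay below the highest untreated library. The difference was 0.41 (SE 0.0869; adjusted p = 0.0257, edgeR), 0.49 within Set 1 and 0.25 within Set 3. Without the set the adjusted p was 0.646. Leaving out the Set 1 experiment 1 or Set 3 untreated library, or either Set 1 siStag3 library, took the adjusted p past the threshold, up to 0.143. Without the Set 3 siStag3 library 8 members passed, and the share of all genes in that fit is not given here. The interval of Eif1ax for siStag3 against siLuc ran from -0.19 to 0.19. CPM did not overlap for 1 member, Eif2b5, which was lower with siStag3 than in untreated cells, where 10% of all genes did not overlap. Eif4g3 was at 21.5, 19.1 and 22.6 CPM in untreated cells, and its difference of -0.29 had an adjusted p of 0.122 (edgeR).

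**Figure D3:**
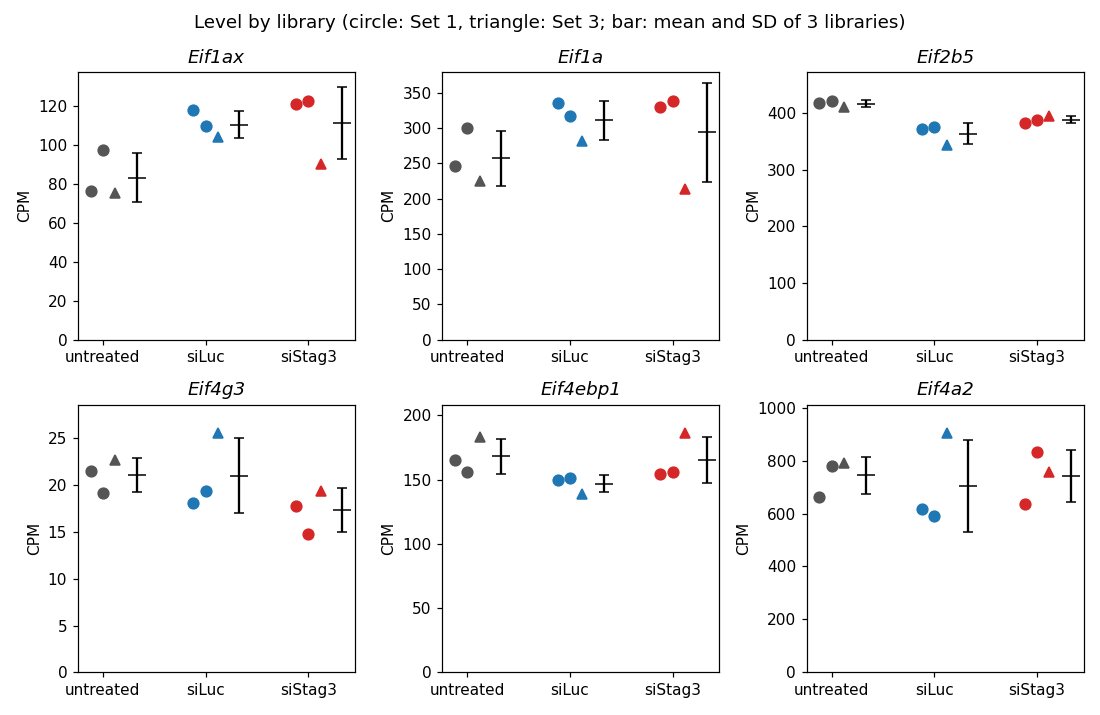
CPM by library for 6 members (circle: Set 1, triangle: Set 3; the bar beside each group shows the mean and SD of 3 libraries; axes start at 0). All siLuc libraries of Eif1ax lie above the untreated ones, Eif2b5 is highest in untreated cells, and the Eif4a2 libraries of 1 group spread from 591 to 903 CPM.

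The 4 eIF2 genes had parallel levels across the libraries, and none passed a group comparison. In the order of untreated, siLuc and siStag3, Eif2s1 was at 246, 291 and 235, then 308, 298 and 257, then 312, 316 and 225 CPM. The Set 3 library was the lowest of each group. Eif2s2 was at 1293, 1549 and 1292 CPM in untreated, 1720, 1505 and 1429 in siLuc and 1638, 1587 and 1281 in siStag3 libraries, with the same library lowest in each group. Eif2s3x was at 540, 550 and 521, then 613, 585 and 535, then 567, 599 and 467 CPM. Eif2s3y was at 50.8, 62.7 and 48.3, then 63.1, 61.8 and 57.1, then 59.5, 62.7 and 44.1 CPM. In every gene of the complex the groups overlapped in all 3 comparisons.

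The 4 differences between siLuc and untreated cells were all positive, from 0.10 (Eif2s3x) to 0.17 (Eif2s2 and Eif2s3y), with adjusted p from 0.162 to 0.278 (edgeR). Between siStag3 and siLuc the 4 values were all negative in the fit, from -0.14 (Eif2s3y) to -0.03 (Eif2s1). The values were larger in Set 3, where Eif2s1, Eif2s2, Eif2s3x and Eif2s3y differed by -0.19, -0.16, -0.20 and -0.37, beside 0.05, 0.00, -0.04 and -0.03 in Set 1.

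Of the 5 eIF2B genes, 4 had negative values between siLuc and untreated cells, and all 5 had positive values between siStag3 and siLuc. From Eif2b1 to Eif2b5 the latter were 0.05, -0.06, 0.03, -0.00 and 0.04 within Set 1. Within Set 3, where the siLuc library has another experiment number, they were 0.10, 0.27, 0.06, 0.17 and 0.20. Eif2b5 was at 418, 422 and 410 CPM in untreated, 372, 376 and 343 in siLuc and 382, 388 and 395 in siStag3 libraries. The 3 groups did not overlap, with untreated highest and siLuc lowest. The difference between siLuc and untreated was -0.20 (SE 0.0526; 95% interval -0.31 to -0.08; adjusted p = 0.051, edgeR; 0.0187, DESeq2), -0.17 in Set 1 and -0.26 in Set 3. For siStag3 against siLuc it was 0.10 (-0.02 to 0.21; adjusted p = 0.681, edgeR).

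The other eIF2B subunits lay closer together. Eif2b1 was at 80.8, 79.7 and 79.3, then 87.7, 80.7 and 73.7, then 87.6, 86.5 and 78.8 CPM, with overlapping groups. Eif2b2 was at 49.7, 51.5 and 56.9 in untreated and 49, 47 and 49 CPM with siLuc, all below the untreated libraries, and 44.5, 47.9 and 58.9 with siStag3. Eif2b3 was at 50.6, 52.3 and 56.2, then 55.4, 48.5 and 49.2, then 53.4, 52.2 and 51.4 CPM. Its groups overlapped. Eif2b4 was at 75.5, 81.7 and 97.8, then 73.3, 73.2 and 80.2, then 72.5, 73.8 and 90 CPM, highest in the Set 3 library of each group. The siLuc to untreated differences of these 4 genes were 0.01, -0.12, -0.06 and -0.16, and none passed (adjusted p from 0.111 to 0.923, edgeR).

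The other complexes are given by their ranges. Between siStag3 and siLuc the 14 eIF3 genes differed by -0.12 to 0.09, with 10 positive and 4 negative, and all 14 intervals lay inside ±0.5. Between siLuc and untreated cells they ranged from -0.13 (Eif3k) to 0.32 (Eif3j2), with 6 positive and 8 negative. The 11 genes of eIF4F and its cofactors had a median difference of 0.01 between siStag3 and siLuc and -0.01 between siLuc and untreated cells, and 9 of the 11 intervals lay inside ±0.5 in each. The 5 genes of eIF5, eIF5B, eIF5A and eIF6 ranged from -0.11 to 0.13 between siStag3 and siLuc and from -0.17 (Eif6) to 0.25 (Eif5) between siLuc and untreated cells.

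More members differed between the sets than between the treatments. Between Set 3 and Set 1, 25 of the 56 members passed (9 higher and 16 lower in Set 3), or 44.6%, where 42.7% of all genes tested did. Of the 16 lower, 4 were numbered Eif1ad genes with few counts. The count was 13 without either of the experiment 5 libraries. All 4 eIF2 genes were lower in Set 3, from -0.30 (Eif2s1) to -0.18 (Eif2s3x), with adjusted p from 0.00241 to 0.0184 (edgeR). Of the eIF2B genes, Eif2b4 (0.25) and Eif2b2 (0.19) were higher and 3 did not pass. Of the 14 eIF3 genes, Eif3f, Eif3g, Eif3i and Eif3k were higher and Eif3a, Eif3e and Eif3j2 lower. Eif3f differed by 0.29 (adjusted p = 0.000307, edgeR). Eif4g2, which encodes an eIF4G relative without the eIF4E-binding part, differed by -0.36 (adjusted p = 0.000347, edgeR). Eif5a2 differed by -0.45 (adjusted p = 0.000535, edgeR).

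Members with parallel values shared the base composition of their transcripts. The 4 eIF2 transcripts have 39.5% to 44.1% GC and the 5 eIF2B transcripts 46.8% to 56.8%. Over the 48 members with a mean of at least 10 CPM, the rank correlation of the log2 difference with GC was -0.751 between siLuc and untreated cells and 0.578 between siStag3 and siLuc, and over all 14226 genes with a GC value -0.495 and 0.383. These are descriptions across genes that share the same libraries. The values over all genes also include genes with a mean under 10 CPM, so they are not matched to the 48 members. Of the 18 members under 46% GC, 17 had a positive difference between siLuc and untreated cells (median 0.17), and of the 30 others 6 did (median -0.05). Within the 14 eIF3 genes alone the rank correlation was -0.824.

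**Figure D4:**
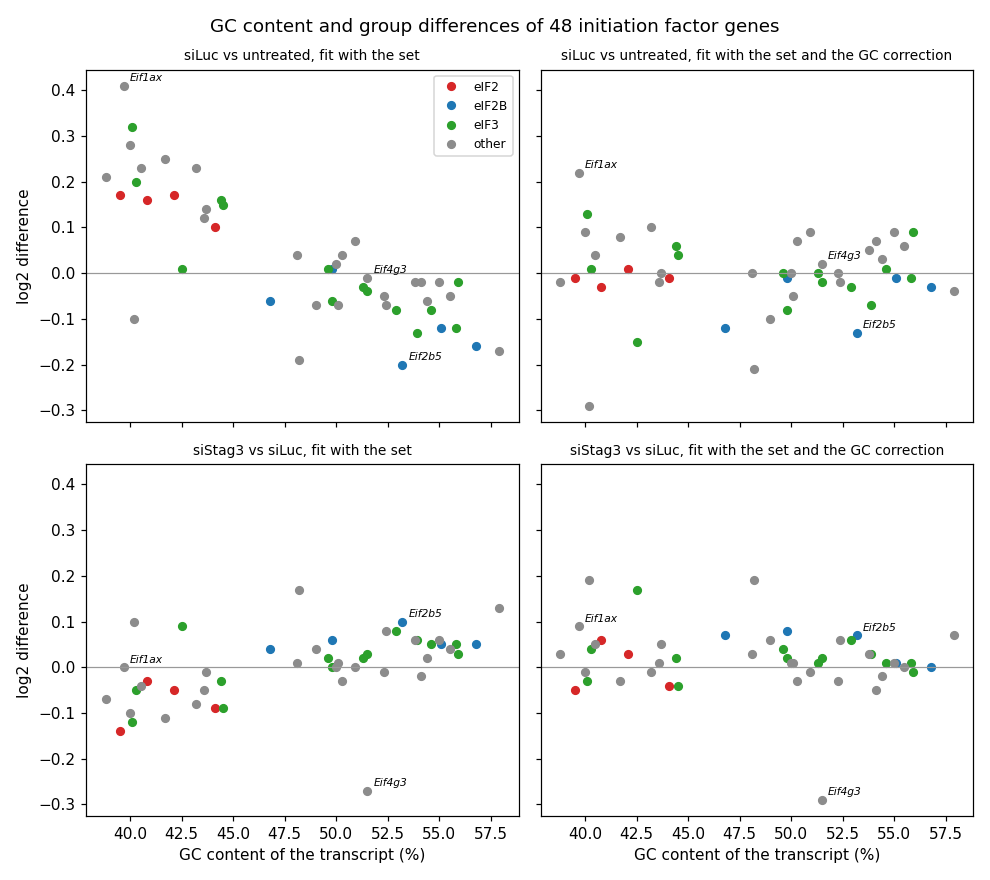
Log2 difference against GC content of the transcript for 48 members, for siLuc against untreated cells (top) and siStag3 against siLuc (bottom), in the fit with the set (left) and with an added GC correction (right). The rank correlations of -0.751 (top) and 0.578 (bottom) on the left are -0.0559 and -0.158 on the right, a fall that the correction is built to produce. On the right Eif1ax remains the highest point in the comparison of siLuc with untreated cells.

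The pattern was also read library by library. Taking each member's deviation from its own mean over 9 libraries, the median of the 18 members under 46% GC minus that of the 30 others was -0.15, 0.07 and -0.32 in the untreated libraries (Set 1 experiments 1 and 3, then Set 3). It was 0.19, 0.11 and 0.06 in the siLuc and 0.19, 0.21 and -0.29 in the siStag3 libraries. Within each set and experiment of Set 1, and within Set 3, the untreated library had the lowest value. The experiment 5 libraries were the lowest of all. The mitochondrial share of counts was 4.41%, 5.33% and 3.48% in the untreated libraries, 6.73%, 6.08% and 5.98% with siLuc and 6.6%, 6.78% and 4.1% with siStag3. Every untreated library lay below every siLuc library, and the experiment 5 libraries were lowest. The part of this share in the results was not tested.

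With the GC trend of each library removed, the rank correlations were -0.0559 and -0.158. The correction is built to remove this relation, so the fall is not a result. It would also remove a treatment difference that followed GC. The 4 eIF2 differences between siLuc and untreated cells then lay between -0.03 and 0.01, and between Set 3 and Set 1 none of the 4 passed. The members that passed between the sets fell in number from 25 to 17, where 41.5% of all genes passed, and 8 were called in both fits. The other 9 were called only with the correction. They were Eif4g1 (-0.23), Eif4a2 (0.51), Eif5b (0.20), Eif3b, Eif2b5, Eif3d, Eif4e2, Eif2d and Eif4ebp1. Eif2b2 (0.04), Eif2b4 (0.08), Eif3e (0.07), Eif3g (-0.02), Eif3j2 (-0.01) and Eif5a2 (-0.13; adjusted p = 0.0765, edgeR) no longer passed between the sets. Between siLuc and untreated cells Eif2b5 stood at -0.13 (adjusted p = 0.0587, edgeR). Between the sets it was also at -0.13 and passed (adjusted p = 0.00676, edgeR). Eif1ax kept its call at a smaller size, 0.22 between siLuc and untreated cells (adjusted p = 0.00642) and 0.31 between siStag3 and untreated cells (adjusted p = 0.000296, both edgeR). In these fits 6.96% and 6.79% of all genes passed. Eif4g3 passed between siStag3 and untreated cells at -0.27 (adjusted p = 0.0452, edgeR). Eif3f still differed between the sets, by 0.31 (adjusted p = 2.12e-06, edgeR). Between siStag3 and siLuc 0 members passed with the correction, where 0.47% of all genes did, and 5 (8.93%) had an unadjusted p under 0.05, beside 10.4% of all genes.

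**Figure D5:**
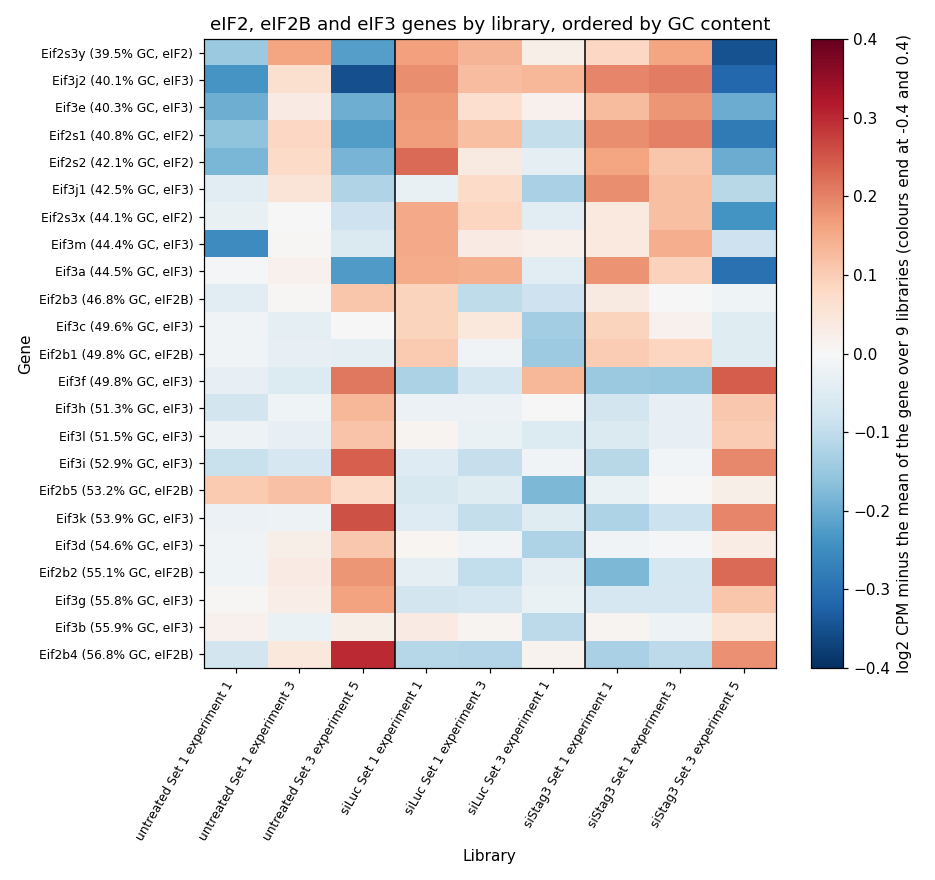
Deviation of log2 CPM from each gene's mean over 9 libraries for the eIF2, eIF2B and eIF3 genes (rows, ordered by GC content; columns, libraries by group). The low-GC rows at the top, with all 4 eIF2 genes, are low in the 2 experiment 5 libraries, and most of the high-GC rows below are high there.

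Genes that act beside the initiation factors were taken from 5 lists. Of 13 genes of the ternary complex and integrated stress response, 1 passed between siLuc and untreated cells, where 4.2% of all genes tested did. Between siStag3 and untreated cells 1 of the 13 passed, where 2.53% of all genes tested did. Both times this was Impact, whose product restrains the eIF2 kinase GCN2. Impact was at 222, 242 and 197 CPM in untreated, 277, 280 and 267 in siLuc and 295, 304 and 219 in siStag3 libraries. The siLuc libraries were all higher than the untreated ones, by 0.32 (adjusted p = 0.0293, edgeR), and siStag3 differed from untreated by 0.30 (adjusted p = 0.0452, edgeR), with overlapping groups. Without the set these adjusted p values were 0.58 and 0.787. Atf4, the transcription factor whose translation rises when eIF2 alpha is phosphorylated, was at 222 to 258 CPM in all libraries and passed in none of the 3 comparisons.

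Of 19 genes of mTORC1 and cap-binding control, 1 passed between siLuc and untreated cells, where 4.2% of all genes tested did. Single calls like these are not read as particular to a list. Deptor, an inhibitor of mTOR, was at 69.7, 70.8 and 51 CPM in untreated and 77.6, 81.5 and 68.2 CPM with siLuc, with a difference of 0.26 (adjusted p = 0.0432, edgeR; 0.623 without the set). With the GC correction it was 0.15 (adjusted p = 0.0629, edgeR). In the fit with the set no gene passed in the group comparisons among 9 scanning helicases and poly(A)-binding proteins, 10 regulators of the initiator and of recycling, and the 12 tested of 13 elongation and termination factors. No tested gene of the 5 lists passed for siStag3 against siLuc. With the GC correction 6.96% of all genes passed between siLuc and untreated cells and 6.79% between siStag3 and untreated cells. Impact then kept its calls at 0.16 and 0.21, and 4 list genes were called that had not been. These were Ddx3x, a scanning helicase (0.19, adjusted p = 0.0241), Trib3 (0.33, 0.0278) and Sesn2 (0.15, 0.0245), both stress-response genes, higher with siLuc than in untreated cells. The fourth was Pdcd4, an inhibitor of eIF4A, lower with siStag3 than in untreated cells (-0.21, adjusted p = 0.028, all edgeR).

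Paralogue pairs kept their order in all 9 libraries. Eif4g3 reached 1.63% to 2.99% of the CPM of Eif4g1, Eif5a2 1.18% to 2.2% of Eif5a, and Eif4ebp1 49.1% to 59.3% of Eif4ebp2. Eif4a2 reached 27.8% of Eif4a1 in both Set 1 siLuc libraries and 44.7% in the Set 3 siLuc library. Eif4e2, which encodes a cap-binding relative of eIF4E that represses translation, was at 105% to 152% of the CPM of Eif4e. The 3 highest values of that pair, 138%, 141% and 152%, came from untreated Set 1 experiment 1 and the experiment 5 libraries. Per length the order of Eif4e and Eif4e2 depends on the transcript used. With the longest transcripts they stood at 35.2 and 61.9 CPM per kb, and with the median lengths at 241 and 134.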

How the data were processed

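RNA of 9 cultures was sequenced after mRNA library preparation. The authors deposited raw counts per gene in 1 table; the submitters' processing notes name FastQC, Salmon, DESeq2 and GRCm39 without roles, and aligner settings, annotation release and strand setting are not given in the sources used here. Counts were whole numbers and were used as deposited. Columns name group, set and experiment, not replicate, and were assigned to groups only. edgeR 4.0.16 (R 4.3.3) was run with TMM scaling, filterByExpr, group means plus the set, a robust quasi-likelihood fit over all 9 libraries and Benjamini-Hochberg adjustment over 14246 genes at 0.05. The biological coefficient of variation was 7.62% with the set and 14.6% without. Alternatives were DESeq2 1.42.0, other scalings and filters, no set, 6 libraries, Set 1 alone, leaving out each library, a GC correction (median log2 deviation in 20 GC bins per library) and, added after seeing the data, a block of set and experiment. In that block all libraries of Set 3 were 1 level, whatever their experiment number. CPM used TMM library sizes. Lengths, GC and shared 31-base words came from GENCODE M21 (GRCm38), an older build than the notes name, matched by gene ID for 16604 genes. Full values are given for members that passed in a group comparison and for eIF2 and eIF2B; where none passed, the 3 smallest p are named; members at the ends of a complex's levels and list genes that passed are named. The members, lists and main fit were chosen with earlier results of these data known. The main fit was tested for siStag3 against siLuc on counts simulated from its own model, with no differences by experiment and no GC trend of single libraries. Of added log2 changes of 0.25, 0.5 and 1 in size, 13.4%, 64.2% and 93.8% were called. Of 120 calls 7 were false.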

Additional observations from a re-analysis of the deposited data

How the results depend on the processing

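Between siStag3 and siLuc 0 members passed under every alternative run. Between siLuc and untreated cells the count of 1 became 0 without the set and 0 in Set 1 alone, 2 with total-count scaling, 2 with a minimum mean of 50 counts, 6 with DESeq2, 6 when fitted on the libraries of those groups, and 2 with the block of set and experiment plus GC correction. Between siStag3 and untreated cells the count of 1 became 0 without the set, 2 with GC correction, 3 in Set 1 alone and 2 with the block plus GC correction. Leaving out 1 library gave 0 to 10 members between siLuc and untreated cells, 0 to 8 between siStag3 and untreated cells and 13 to 27 between the sets; the 10 and the 8 came without the Set 3 siStag3 library, and the 13 without either experiment 5 library. No share of all genes is given for the fits that leave out 1 library, use another scaling or filter, or take fewer libraries. The same holds for the block fits, and none of these counts is set against all genes. DESeq2 called 11.6% of all genes with an adjusted p between siLuc and untreated cells. With the GC correction 6.79% of all genes passed between siStag3 and untreated cells. Stag3 differed by -0.71 without the set, no longer past the threshold, and by -0.76 to -0.67 with 1 library left out. No value called between the treatment groups changed sign. Between the sets some did with the GC correction, for example Eif1ax, Eif3e and Eif3g, which were then not called. The cause of these differences between fits was not tested. No paired analysis was possible because no column name holds a replicate number, as far as the labels' replicates go. The column names do tie libraries by set and experiment. A fit with 1 block for each experiment of Set 1 and 1 for all of Set 3 left the counts at 0, 1 and 1. It did not separate the experiment numbers inside Set 3. Total-count scaling moved the median of all genes between siLuc and untreated cells to -0.05. The 8 tested members with a mean under 10 CPM had intervals that reached beyond ±0.5 on the log2 scale between siStag3 and siLuc.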
